A study of Bos taurus with 9 samples.

Results

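The 9 RNA sequencing libraries of this series came from 3 replicate pools of bovine blastocysts for each of 3 oocyte maturation media. The comparison described here set the pool numbered 1 of each medium against the pools numbered 2 and 3, with the medium as a covariate. All 9 of 9 libraries took part, 3 first pools and 6 later pools, and 16469 of the 22127 genes in the deposited table had enough counts to be tested. Glucose was at 5.5 mM in the control medium and at 2.75 mM in the other 2, 1 of which (low glucose with BHB) also contained BHB at 1.8 mM, an abbreviation that the labels do not spell out. After maturation the oocytes of all groups were fertilised in vitro, and blastocysts were taken at day 8 in pools of 9 to 11 embryos, so every value is a mean over embryos of a pool. The labels give the replicate number no meaning: they do not say whether pools with the same number shared ovaries, a fertilisation run, a bull, a batch of medium or a day of extraction. First and later pools can therefore differ in any of these, which cannot be told apart here, and a p-value measures the spread between these pools only, part of which may be technical. The division was proposed after a principal component of the same data had set replicate 1 apart. The number of genes that differ, their overlap and the share of the spread therefore describe the division and are not independent evidence for it.

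A blastocyst holds an outer trophectoderm, which forms the placenta, and an inner cell mass that gives rise to the epiblast, the source of the fetus, and to the hypoblast, which lines the yolk sac. Embryos made in vitro differ between rounds of collection, and their metabolism answers to the supply of amino acids and glucose. Methionine is turned into S-adenosylmethionine, the methyl donor of the cell, by an enzyme whose catalytic subunit is MAT2A. Cells short of amino acids raise ATF4, a transcription factor whose targets make serine, proline and asparagine, import amino acids and charge transfer RNAs.

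Total estimated counts ran from 55611205 to 75178898 per library, and the log2 of CPM, counts scaled to a common library size, correlated at 0.951 to 0.976 between pools of the same medium. Markers of the blastocyst were present in every pool, among them the trophectoderm keratin KRT18 at 4550.4 CPM or more and the pluripotency factor POU5F1 at 888 CPM or more. Of 9 measures of whole libraries, none passed an exact permutation test within media, where the smallest p that the 27 arrangements allow is 0.037. The nearest was the number of genes with a count, 16671, 17208 and 16991 in the first pools of control, low glucose and low glucose with BHB and 17107 to 17825 in the later pools (two-sided exact permutation p = 0.0741, 0.666 after adjustment over the 9 measures). Mitochondrially encoded transcripts took 4.93%, 7.93% and 3.36% of counts in the first pools and 2.25% to 6.19% in the later ones. Embryos per pool were 10, 9 and 10 in the first and 9 to 11 in the later pools.

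Being a first or a later pool accounted for 17.5% of the sum of squares of log2 CPM over all tested genes, with 1 degree of freedom, beside 31.2% for the medium with 2 and 51.2% for the rest with 5. Per degree of freedom this was 1.71 times the rest, and the medium took 1.52 times the rest. Of the spread within media, 25.5% lay between first and later pools. After the mean of each medium was removed, the first principal component held 27.9% of the variance and had scores of 72.6, 20.5 and 39.6 in the first pools and of -38.7 to -6.45 in the 6 later pools. The 3 first pools thus lay on one side without overlap, and the control pool lay farthest out. Because the division was proposed from a principal component of these data, this separation restates it and is not evidence for it. The second component, with 21.2%, did not separate them: the first pools scored 21.8, 23.8 and -40.4. Deviations from the medium means correlated over genes at 0.115 to 0.144 between first pools of different media, at 0.0491 to 0.243 between the replicates numbered 2 and at 0.0417 to 0.102 between those numbered 3.

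**Figure D1:**
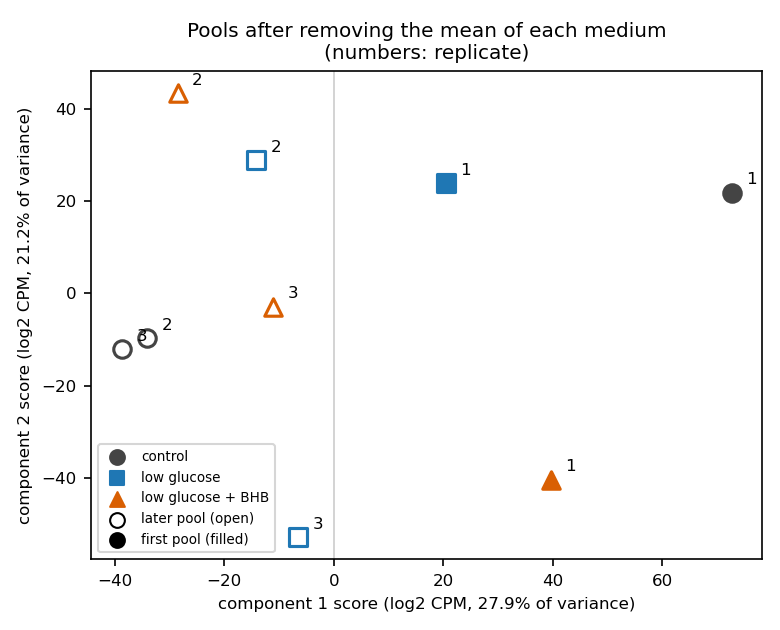
Scores of the 9 pools on the first 2 principal components of log2 CPM after subtraction of each medium's mean; shape and colour give the medium, filled symbols the first pools, and the number beside a symbol its replicate. The 3 filled symbols lie at 20.5 to 72.6 on the first axis and all 6 open symbols below 0, while the second axis spreads both kinds.

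In the first pools 36 genes were higher (0.219% of tested genes) and 27 lower (0.164%). The threshold was an adjusted p under 0.05 in edgeR's quasi-likelihood test. The median size was 2-fold for the higher and 2.06-fold for the lower genes. Of all 16469 tested genes, 2229 had an unadjusted p under 0.05, the background for such counts in the gene lists below. Every one of the 63 lay on the same side of both later pools in each of the 3 media, which was so for 1253 higher genes (7.61%) and 1317 lower genes (8.00%) of all those tested. Of the 36, 30 were above all 6 later pools whatever the medium, and of the 27, 24 were below all of them. Among all 16469 tested genes, 584 were above and 618 below in this way. The 63 were called for this same split, so their lack of overlap is not further evidence. The median log2 fold change of all tested genes was -0.01. At the edge of the threshold stood MAP4K3 (0.65) and URAD (-0.74), both at adjusted p = 0.0487, and just outside it PLCD3 (-0.78, adjusted p = 0.0507).

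The number of calls rested on single libraries. Since all 63 called genes lay on 1 side in every medium, a fit without a library or medium cannot turn their sign. Of the 63, 2 were still called without control replicate 1, 1 without control replicate 2, 10 without control replicate 3, 8 without low glucose replicate 1, 7 without low glucose replicate 2, 57 without low glucose replicate 3, and 3, 42 and 32 without replicates 1, 2 and 3 of low glucose with BHB. MAT2A was the single named gene whose call survived every one of these 9 fits. No other named gene was called without control replicate 2, and NOS2 alone of the others was called without control replicate 1. Without the medium as a covariate the split was 21 higher and 5 lower, and of the 63 genes 25 were called. DESeq2 called 221 higher and 323 lower genes of the 16469, all 63 among them.

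**Figure D2:**
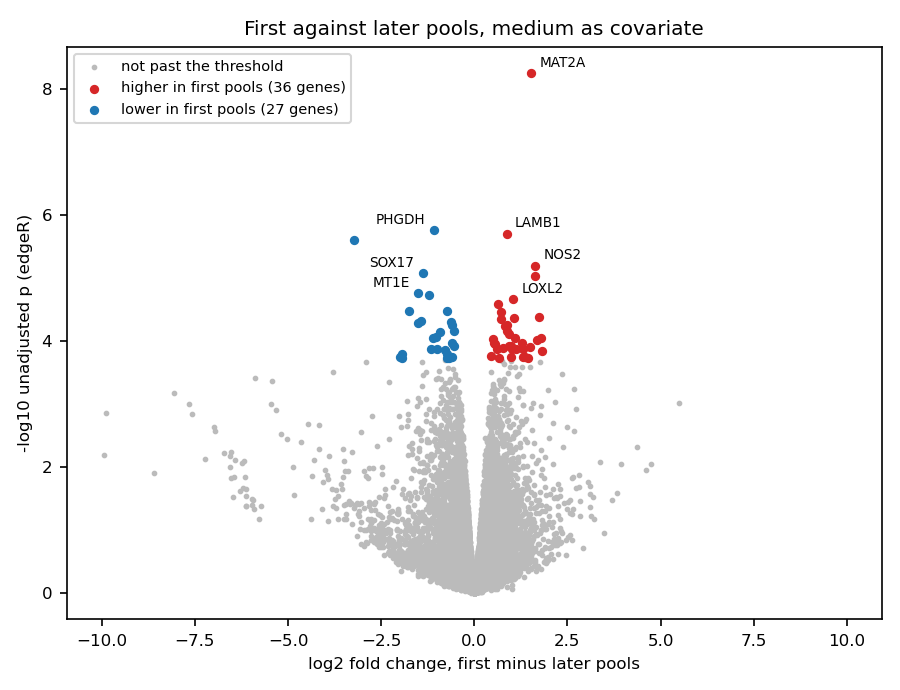
Each point is a tested gene, with the log2 fold change of first minus later pools across and the -log10 of the unadjusted edgeR p upward; red marks the 36 genes past the threshold and higher, blue the 27 lower. MAT2A stands above all others in p, and the called genes lie on both sides.

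Set apart by number, replicate 1 differed from replicate 2 in 22 higher genes (0.134%) and 23 lower genes (0.140%), and from replicate 3 in 1 higher gene (0.00607%), MAT2A, and 0 lower genes, where 1893 genes had an unadjusted p under 0.05 and limma-voom called 3 in each direction. Replicates 2 and 3 differed in 0 genes in edgeR (0%), with 896 at an unadjusted p under 0.05 and 1 lower gene in limma-voom. These fits hold 3 pools against 3 and the first 2 share the replicate 1 pools. Within a single medium, 1 first pool against 2 later pools gave 0 calls in each of the 3 media in edgeR (1807, 1290 and 1639 genes at an unadjusted p under 0.05 in control, low glucose and low glucose with BHB), and limma-voom called 2 higher genes in control.

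MAT2A, the catalytic subunit of the enzyme that makes S-adenosylmethionine, had the smallest p of all tested genes. It stood at 394, 338 and 344 CPM in the first pools of control, low glucose and low glucose with BHB, and at 107 to 137 CPM (median 124) in the 6 later pools. The 3 first pools lay close together and far from the later ones, with no overlap. The rise was 2.89-fold (log2 fold change 1.53, SE 0.1, adjusted p = 9.01e-05). By medium the log2 fold change was 1.69, 1.43 and 1.48. Replicate 1 exceeded replicate 2 by 1.47 and replicate 3 by 1.60 on the log2 scale, whereas replicates 2 and 3 differed by 0.14 (adjusted p = 0.939). Without any 1 library the value was 1.45 to 1.58 with an adjusted p of 0.000164 to 0.00657.

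PHGDH, PYCR1, PCK2 and CARS1, which act in amino acid synthesis, phosphoenolpyruvate synthesis and transfer RNA charging, fell in the first pools. PHGDH, which catalyses the first step from glycolysis to serine, was at 50.2, 86.1 and 100.2 CPM in the first pools and at 130.0 to 205 CPM (median 163) in the later ones. Every first pool was below every later pool, and the fall was 2.14-fold (log2 fold change -1.09, SE 0.123, adjusted p = 0.0101). The call was lost without control replicate 1 (adjusted p = 0.0986), control replicate 2 (0.0514) or the control medium (0.234). PYCR1, which completes proline synthesis, was at 24.6, 38.1 and 44.7 CPM against 43.4 to 86.2 CPM (log2 fold change -0.73, SE 0.133, adjusted p = 0.0487). The low glucose with BHB pool reached into the range of the later pools of control, while within each medium the first pool was lowest. PCK2, the mitochondrial enzyme that makes phosphoenolpyruvate, was at 20.5, 37 and 36.4 CPM against 54.8 to 98.1 CPM, with no overlap (log2 fold change -1.22, SE 0.174, adjusted p = 0.0335). CARS1, which charges transfer RNA with cysteine, was at 259, 312 and 413 CPM against 419 to 590.0 CPM (log2 fold change -0.62, SE 0.0984, adjusted p = 0.041). Without 1 library the adjusted p rose to as much as 0.275 for PYCR1, 0.183 for PCK2 and 0.258 for CARS1.

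Of 34 tested genes of the integrated stress response and of amino acid supply, 2 fell (PHGDH and PYCR1), 0 rose, and 14 (41.2%) were lower than both later pools in every medium against 8.00% of all tested genes. None was higher in every medium. The median log2 fold change was -0.30 beside -0.01 for all genes, with 17 genes at an unadjusted p under 0.05 and 13 called lower by DESeq2. By medium it was -0.36, -0.42 and -0.28 in control, low glucose and low glucose with BHB. Without any 1 library it lay between -0.39 and -0.28. Members chosen after their values were seen, none past the threshold, included PSPH, the last enzyme of serine synthesis, at 32.7, 39.3 and 48.9 CPM against 50 to 66.6 CPM (log2 fold change -0.57, adjusted p = 0.0589). SLC7A1, an importer of cationic amino acids, was at 7.51, 13.2 and 19.9 CPM against 21.3 to 31.3 CPM (log2 fold change -0.97, adjusted p = 0.0709). Both had all 3 first pools below all later pools. SLC7A5, an importer of large neutral amino acids, was at 433, 502 and 545 CPM against 604 to 711 CPM (log2 fold change -0.43, adjusted p = 0.0983). ASNS, which makes asparagine, was at 157, 175 and 214 CPM against 204 to 277 CPM, with overlap between media (log2 fold change -0.41, adjusted p = 0.144). ATF4 itself stood at 293, 371 and 472 CPM against 391 to 514 CPM (log2 fold change -0.24, adjusted p = 0.417). The low glucose with BHB pool was within the later range for ATF4, and DDIT3 and TRIB3, stress targets also chosen after their values were seen, had log2 fold changes of 0.75 and 0.05, so the list did not move as 1 block.

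**Figure D3:**
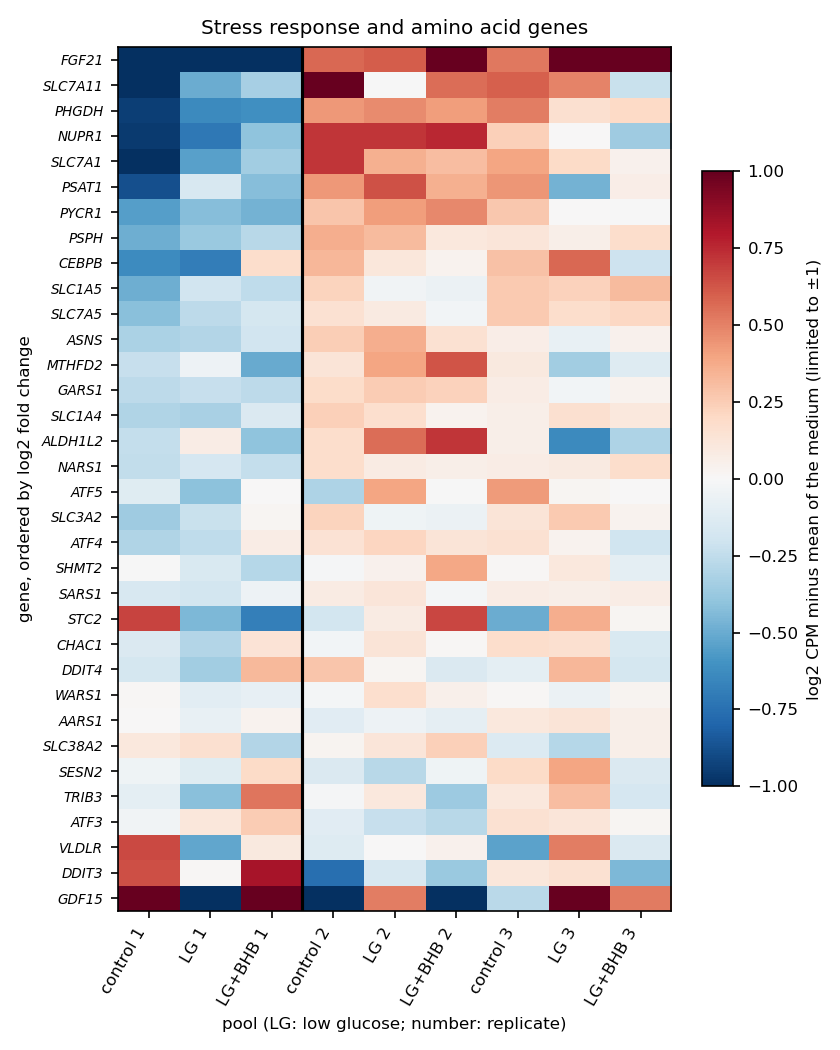
Each row is 1 of the 34 tested genes of the stress response and amino acid list, ordered by log2 fold change, and each column a pool, with the 3 first pools left of the black line; colour is log2 CPM minus the mean of the medium, limited to 1 on either side. Blue prevails at the left for PHGDH, SLC7A1, PYCR1 and PSPH, and GDF15, DDIT3 and VLDLR at the foot show no such order.

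In the matrix and adhesion list 5 of 38 tested genes rose, LAMB1, LAMC1, LOXL2, COL12A1 and COL1A2, beside 36 (0.219%) of all 16469 tested genes. This count of 5 was the highest among the 40 lists, some of which share these genes. LAMB1 and LAMC1 encode chains of laminin, the main protein of basement membranes. LAMB1 was at 355, 293 and 339 CPM in the first pools and 156 to 199.8 CPM (median 182) in the later pools (log2 fold change 0.87, SE 0.0986, adjusted p = 0.0101). LAMC1 was at 195, 184 and 163 CPM against 96.9 to 140.0 CPM (log2 fold change 0.60, SE 0.107, adjusted p = 0.0463). Neither overlapped. LOXL2, which cross-links collagen, was at 94.2, 103 and 108 CPM against 38.6 to 62.8 CPM, likewise without overlap (log2 fold change 1.05, SE 0.152, adjusted p = 0.0348). The collagen genes COL12A1 and COL1A2 were highest in the first control pool. COL12A1 was at 203, 96.2 and 129 CPM in the first pools and 54.7 to 96.8 CPM in the later ones, so that the low glucose first pool met the later control pools (log2 fold change 0.87, SE 0.144, adjusted p = 0.0453). COL1A2 was at 310.1, 105 and 123 CPM against 52.1 to 163 CPM (log2 fold change 0.77, SE 0.136, adjusted p = 0.0463). Without 1 library the adjusted p reached 0.0986 for LAMB1, whose call was lost without control replicate 1, control replicate 2 or replicate 1 of low glucose with BHB, and it reached 0.194 for LOXL2, 0.258 for LAMC1, 0.275 for COL12A1 and 0.275 for COL1A2.

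Of 38 tested matrix and adhesion genes, 5 rose and 0 fell, and 10 (26.3%) were higher in the first pool of every medium against 7.61% of all genes, with 2 lower. Their median log2 fold change was 0.30, and it was 0.36, 0.23 and 0.02 in control, low glucose and low glucose with BHB, so it was near 0 with BHB. COL4A2, a basement membrane collagen chosen after its values were seen, was at 162, 153 and 129.7 CPM against 159 to 253 CPM (log2 fold change -0.49, adjusted p = 0.176) and lay below both later pools of every medium. COL5A1 was at 86, 16.9 and 11.1 CPM against 5.83 to 74 CPM (log2 fold change 0.48, adjusted p = 0.49), and without low glucose replicate 1 its log2 fold change was -0.06. Markers of fibroblasts and stroma, which share COL1A2 and ACTA2 with the results above and below, had a median of 0.47 over 24 tested genes, 20 of them positive, and 2 rose. Their summed level was 3408 CPM in the first control pool against 2246 and 2608 in the later ones, 1776 against 1667 and 1914 in low glucose, and 1810 against 1898 and 1731 with BHB. In both media with low glucose the sum lay within the range of the later pools of that medium. Of the 25 markers in the table, 0 were at 0 in all libraries and FAP was at 0 in some. LUM, a stromal proteoglycan, was at 204, 23.7 and 12.4 CPM against 5.34 to 125 CPM (log2 fold change 0.79, adjusted p = 0.232). Cumulus and granulosa markers, from the cells that surround the oocyte, had a median of -0.03 with 0 of 25 called by edgeR (3 at an unadjusted p under 0.05, 1 lower in DESeq2) and summed to 1068, 487 and 359 CPM in the first and 325 to 1078 CPM in the later pools. The part of such cells in the matrix result was not tested, and in bulk samples fewer cells of a type and less RNA per cell cannot be told apart.

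ACTA2, ACTG2, MYL7, CCN1 and NPPB, which come from no single list, also rose in the first pools. ACTA2, a smooth muscle actin, was at 124, 101 and 113 CPM in the first pools and 21.7 to 76.1 CPM in the later ones, and the groups did not overlap (log2 fold change 1.37, SE 0.251, adjusted p = 0.0487). ACTG2, a near-identical actin with which it can share reads, was at 9.56, 4.93 and 7.55 CPM against 1.2 to 4.43 CPM (log2 fold change 1.32, SE 0.234, adjusted p = 0.0463). MYL7, a cardiac myosin light chain, was at 26.3, 31.2 and 35.7 CPM against 10.9 to 19.7 CPM (log2 fold change 1.08, SE 0.184, adjusted p = 0.0463). All 3 had every first pool above every later pool. CCN1, a matrix-associated protein induced by growth signals, was at 70, 88 and 71.3 CPM against 25.4 to 48.9 CPM (log2 fold change 1.07, SE 0.168, adjusted p = 0.041). NPPB, the precursor of a natriuretic peptide, was at 6.44, 10.7 and 12 CPM against 1.88 to 4.1 CPM (log2 fold change 1.63, SE 0.216, adjusted p = 0.0213). Of 30 tested cytoskeleton and contraction genes only ACTA2 was called, 2 were higher in every medium and 1 lower, and the median was 0.03, so the list as a whole stood near all genes. FOS, an immediate early gene like CCN1, was at 39.5, 52.8 and 30.4 CPM against 17.2 to 44 CPM (log2 fold change 0.49, adjusted p = 0.256). Of 27 tested immediate early genes, 5 were higher and 5 lower in every medium, beside 7.61% and 8.00% of all tested genes, and CCN1 alone was called. Without 1 library the adjusted p reached 0.258 for ACTA2, 0.275 for ACTG2, 0.194 for MYL7, 0.153 for CCN1 and 0.146 for NPPB.

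Other rises included signalling and transport genes. NOS2, the inducible nitric oxide synthase, was at 28.1, 28.3 and 40.1 CPM in the first and 6.53 to 16 CPM in the later pools (log2 fold change 1.63, SE 0.208, adjusted p = 0.0208). COL17A1, a collagen of cell anchorage to the basement membrane, was at 37.7, 32.3 and 39.7 CPM against 6.04 to 18.5 CPM (log2 fold change 1.69, SE 0.289, adjusted p = 0.0463). The receptor gene NOTCH1 was at 6.12, 4.5 and 6.35 CPM against 1.04 to 2.43 CPM (log2 fold change 1.80, SE 0.306, adjusted p = 0.0463), and GIMAP8, of a family of GTPases known from lymphocytes, at 5.76, 6.05 and 5.89 CPM against 0.78 to 3 CPM (log2 fold change 1.82, SE 0.326, adjusted p = 0.0467). These 4 had larger fold changes than MAT2A, with larger standard errors, and none of them overlapped. GATM, the first enzyme of creatine synthesis, was at 22.2, 11.1 and 18.6 CPM against 3.69 to 11.7 CPM, with the low glucose first pool inside the later range (log2 fold change 1.29, adjusted p = 0.0463). MAN1C1, a mannosidase of the Golgi apparatus, had 9.63, 13.8 and 10.8 CPM against 4.04 to 6.22 CPM (log2 fold change 1.13, adjusted p = 0.0463), and OCIAD2 had 5.46, 2.86 and 3 CPM against 0.797 to 2.41 CPM (log2 fold change 1.49, adjusted p = 0.0463). ABCB1, an efflux pump, was at 112, 126 and 130.3 CPM against 81.1 to 94.3 CPM (log2 fold change 0.51, adjusted p = 0.0463). LRP1, an endocytic receptor, was higher in control than in the other media and stood at 196, 45.3 and 43.6 CPM against 27.5 to 106 CPM, so that first and later pools overlapped across media but not within them (log2 fold change 0.73, adjusted p = 0.0407). Without 1 library the largest adjusted p was 0.141 for NOS2 and 0.259 for NOTCH1.

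**Figure D4:**
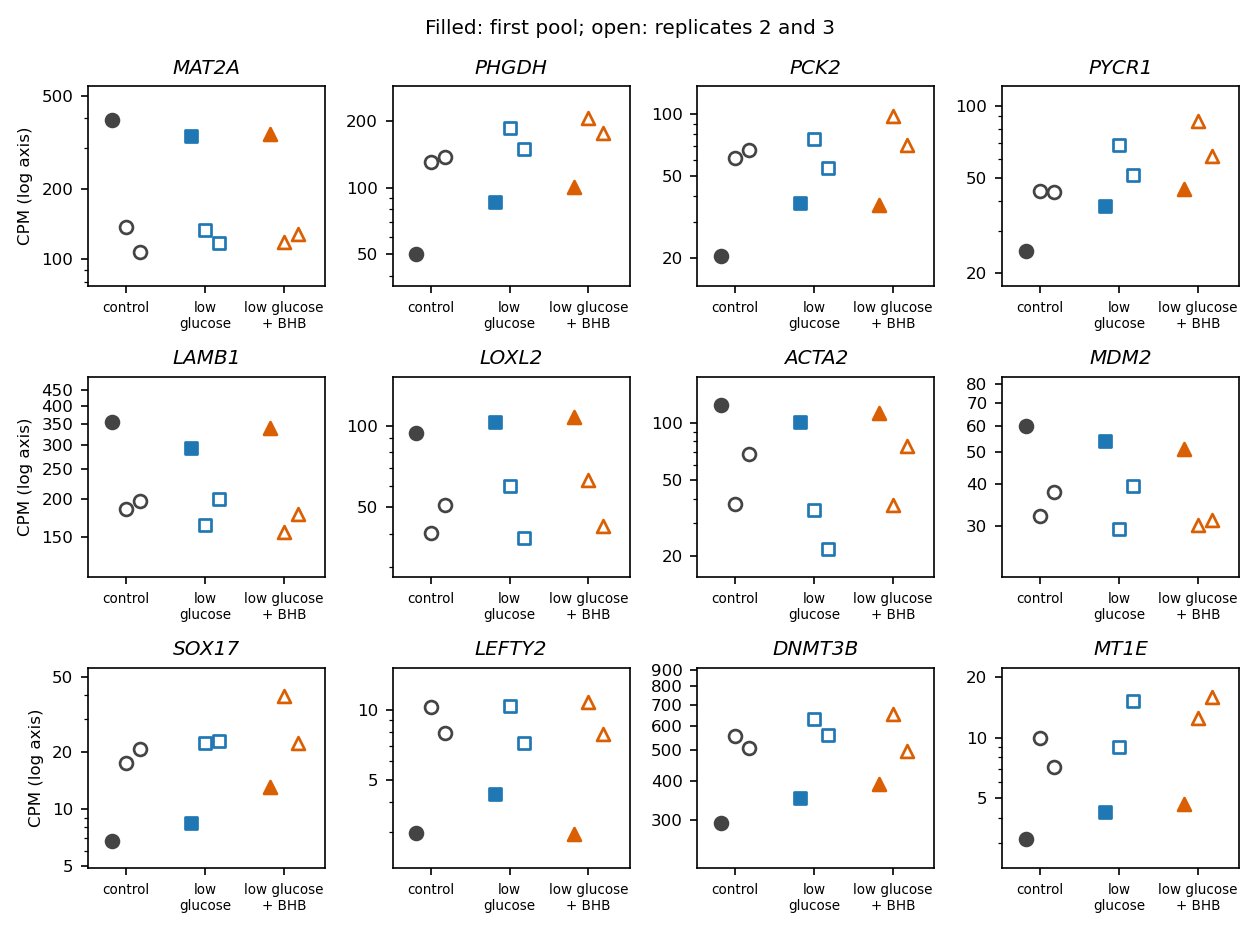
CPM on a log axis of 12 genes past the threshold in each of the 9 pools, by medium; filled symbols are first pools and open symbols replicates 2 and 3 from left to right. In every panel the filled symbol lies on the same side of both open symbols of its medium, for MAT2A at 338 to 393.5 CPM against at most 137 CPM in later pools.

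Among lineage genes, single markers of epiblast and hypoblast fell. SOX17, a transcription factor of the hypoblast, was at 6.79, 8.41 and 13.1 CPM in the first and 17.5 to 39.9 CPM (median 22.4) in the later pools (log2 fold change -1.39, SE 0.183, adjusted p = 0.0213). LEFTY2, a secreted antagonist of NODAL signalling, was at 2.97, 4.34 and 2.92 CPM against 7.18 to 10.8 CPM (log2 fold change -1.43, SE 0.227, adjusted p = 0.041). DNMT3B, which adds new methyl groups to DNA, was at 294, 352 and 392 CPM against 498 to 654 CPM (median 558, log2 fold change -0.72, SE 0.11, adjusted p = 0.0407). All 3 genes were without overlap. NANOG, a core pluripotency factor, was at 33.6, 33.8 and 24.1 CPM against 41.6 to 73.9 CPM, also without overlap but not past the threshold (log2 fold change -0.89, adjusted p = 0.0905). POU5F1 stood at 888, 902 and 1065 CPM against 968 to 1101 CPM (log2 fold change -0.12, adjusted p = 0.579), and first and later pools overlapped. SOX2 was not tested here. Without 1 library the adjusted p reached 0.165 for SOX17, 0.255 for LEFTY2 and 0.255 for DNMT3B.

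Of 24 tested epiblast and pluripotency genes, 2 fell (LEFTY2 and DNMT3B), 0 rose and 8 (33.3%) were lower in every medium against 8.00% of all genes; the median was -0.18. Of 26 tested hypoblast genes, 1 fell and 3 rose, and the median was -0.19. In every medium 8 (30.8%) were lower and 5 (19.2%) higher, against 8.00% and 7.61% of all tested genes. The 3 that rose, LAMB1, LAMC1 and CTSV, encode matrix proteins and a protease, while SOX17, which fell, is a transcription factor. CTSV, a lysosomal protease, was at 1383, 1646 and 1417 CPM against 814 to 1054 CPM (log2 fold change 0.63, SE 0.0926, adjusted p = 0.038; largest p without 1 library 0.147). GATA6 was at 467, 549.6 and 690.0 CPM against 580.2 to 758 CPM (log2 fold change -0.23, adjusted p = 0.41), and GATA4 at 36.2, 12.4 and 13.8 CPM against 14 to 48.7 CPM (log2 fold change -0.46, adjusted p = 0.274). HNF4A, chosen after its values were seen, was at 54.1, 65.1 and 56.3 CPM against 70.6 to 134 CPM, below every later pool (log2 fold change -0.71, adjusted p = 0.106). Without replicate 1 of low glucose with BHB the median of the hypoblast list was 0.04, so its sign rested on that library.

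Of 34 tested trophectoderm genes 0 were called by edgeR (4 at an unadjusted p under 0.05, 0 called by limma-voom, 1 higher and 2 lower by DESeq2). In every medium 2 (5.88%) were higher and 2 (5.88%) lower, near the shares of all genes. The median was slightly negative at -0.10, with 24 members negative and 10 positive. CDX2, a transcription factor of the trophectoderm, was at 88.6, 128 and 139 CPM against 135 to 187 CPM (log2 fold change -0.46, adjusted p = 0.162). GATA3 was at 82, 136 and 109.5 CPM against 116 to 136 CPM (log2 fold change -0.18, adjusted p = 0.513), and KRT18 at 4550.4, 5958 and 6137 CPM against 5388 to 7635 CPM (log2 fold change -0.20, adjusted p = 0.499). For all 3 the control first pool was lowest of the 9 pools. IFNT2, an interferon tau by which the ruminant embryo signals to its mother, was at 1.6, 1.51 and 0.427 CPM against 2.56 to 4.75 CPM (log2 fold change -1.49, adjusted p = 0.166). IFNT3, chosen after its values were seen, was at 5.81, 8.25 and 4.18 CPM against 9.13 to 18.3 CPM (log2 fold change -1.01, adjusted p = 0.138). Both had all first pools below all later pools without passing the threshold, and near-identical family members can share their reads. Of 16 tested trophoblast hormones and products 0 were called by edgeR, with 6 at an unadjusted p under 0.05. In every medium 2 (12.5%) were higher and 3 (18.8%) lower, against 7.61% and 8.00% of all tested genes. The median was -0.30, and by medium -0.43, 0.24 and -0.52. CYP17A1, chosen after its values were seen, was above every later pool (log2 fold change 1.17, adjusted p = 0.137). CYP19A1, the aromatase, was at 17.1, 20.7 and 18.4 CPM against 17.9 to 28.6 CPM (log2 fold change -0.23, adjusted p = 0.618).

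MDM2, a ubiquitin ligase whose transcript is induced by DNA damage, rose from 29.5 to 39.6 CPM in the later pools to 59.9, 54.1 and 51.2 CPM in the first pools, without overlap (log2 fold change 0.72, SE 0.113, adjusted p = 0.041). Its log2 fold change was 0.77, 0.65 and 0.74 by medium, and without 1 library its adjusted p was at most 0.255. Of 31 tested genes of apoptosis and the DNA damage response it was the only one called, and the median was 0.03. In every medium 6 (19.4%) were higher and 1 lower, against 7.61% and 8.00% of all tested genes. Other members, chosen after their values were seen and not past the threshold, were GADD45B at 34.7, 34.2 and 43.3 CPM against 15.1 to 24.3 CPM (log2 fold change 0.80, adjusted p = 0.0709) and CCNG1 at 474, 511 and 391 CPM against 289.9 to 375 CPM (log2 fold change 0.43, adjusted p = 0.122), both induced by cellular stress. Both had every first pool above every later pool. CDKN1A, an inhibitor of cyclin-dependent kinases, had a log2 fold change of 0.42 (adjusted p = 0.352) and was likewise chosen after its values were seen. GADD45B, CCNG1 and CDKN1A were picked among members with positive values and do not stand for the list, whose median was 0.03.

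Several lower genes take part in metabolism and metal binding. MT1E (ENSBTAG00000001595), a metallothionein that binds zinc and copper, was at 3.13, 4.29 and 4.69 CPM in the first and 7.12 to 15.9 CPM in the later pools (log2 fold change -1.51, SE 0.215, adjusted p = 0.0335), and other metallothioneins can share its reads. A further entry with the symbol MT1E, ENSBTAG00000038706, was at 0.118, 0.565 and 0.345 CPM against 0.472 to 1.6 CPM. It overlapped and was not called (log2 fold change -1.53, adjusted p = 0.312). MID1IP1, a regulator of fatty acid synthesis, was at 18.5, 26.7 and 31.2 CPM against 43 to 67.3 CPM (log2 fold change -1.11, SE 0.188, adjusted p = 0.0463), and CIDEB, a protein of lipid droplets, at 2.05, 2.89 and 2.12 CPM against 4.53 to 10.2 CPM (log2 fold change -1.50, SE 0.239, adjusted p = 0.041). IGFBP4, which binds insulin-like growth factors, was at 15.3, 25.9 and 16 CPM against 33.7 to 47.1 CPM (log2 fold change -1.04, SE 0.176, adjusted p = 0.0463). In the called MT1E entry, MID1IP1, CIDEB and IGFBP4 every first pool was below every later pool. The mitochondrial dehydrogenase HSD17B10 was at 119, 139 and 157 CPM against 183 to 226 CPM (log2 fold change -0.61, adjusted p = 0.0463), and PDP2, a phosphatase that activates pyruvate dehydrogenase, at 62, 73 and 61.7 CPM against 84.5 to 106 CPM (log2 fold change -0.55, adjusted p = 0.0463). The falls were 1.52-fold and 1.46-fold and without overlap. Of the other falls, CLDN3, a tight junction protein, had 21.2, 38 and 32.5 CPM against 44.9 to 81.9 CPM (log2 fold change -0.92, adjusted p = 0.0453). HSPBP1, a cochaperone of HSP70, had 45.8, 48.9 and 57.4 CPM against 70.2 to 78.6 CPM (log2 fold change -0.54, adjusted p = 0.0453), and the small GTPase gene RRAD had 68.7, 84.6 and 88.4 CPM against 92.6 to 153 CPM (log2 fold change -0.67, adjusted p = 0.0487). RASSF10, PINLYP and TMEM45B fell by 1.94, 1.76 and 1.17 on the log2 scale, also below all later pools (adjusted p = 0.0487, 0.0407 and 0.0463). Without 1 library the largest adjusted p was 0.167 for MT1E, 0.259 for MID1IP1, 0.178 for CIDEB and 0.259 for IGFBP4.

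Nuclear genes of mitochondrial energy metabolism had small negative list medians, and 0 genes of the mitochondrial lists were called in edgeR or limma-voom. Over all 16469 tested genes, 2229 had an unadjusted p under 0.05 in edgeR, and DESeq2 called 221 higher and 323 lower. In every medium 8.00% of all tested genes were lower and 7.61% higher in the first pool. Of 75 nuclear genes of oxidative phosphorylation, 14 (18.7%) were lower and 0 higher in every medium, with a median of -0.12, 16 at an unadjusted p under 0.05 and 0 called by DESeq2. Of 25 TCA cycle and pyruvate genes, 6 (24%) were lower and 0 higher, with a median of -0.11, 4 at an unadjusted p under 0.05 and 2 called lower by DESeq2. Among 73 mitochondrial ribosomal proteins 14 (19.2%) were lower and 2 higher, with a median of -0.08, 8 at an unadjusted p under 0.05 and 0 called by DESeq2, while 76 cytosolic ribosomal proteins, with 2 lower and 1 higher, had a median of 0. The 13 mitochondrially encoded genes had 0 in either direction and a positive median of 0.15, and their medians by medium differed in sign, at -0.11, 0.73 and -0.39. Of 26 histone genes 8 (30.8%) were lower and 0 higher in every medium, with a median of -0.15, 5 at an unadjusted p under 0.05 and 1 called by DESeq2. Histone transcripts took 0.183%, 0.166% and 0.169% of counts in the first pools and 0.172% to 0.196% in the later ones (two-sided exact permutation p = 0.148). Of 28 glycolysis genes 2 were lower in every medium and the median was -0.10. The glucose transporter SLC2A1 was at 467, 578 and 537 CPM against 534 to 602 CPM (log2 fold change -0.08, adjusted p = 0.72), and TXNIP, which follows glucose supply, at 39.4, 11.7 and 15.8 CPM against 6.31 to 24.7 CPM (log2 fold change 0.38, adjusted p = 0.53). HSPA1A, a heat shock protein, was at 137, 159 and 142 CPM against 114 to 264 CPM (log2 fold change -0.22, adjusted p = 0.699). These 3 overlapped.

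**Figure D5:**
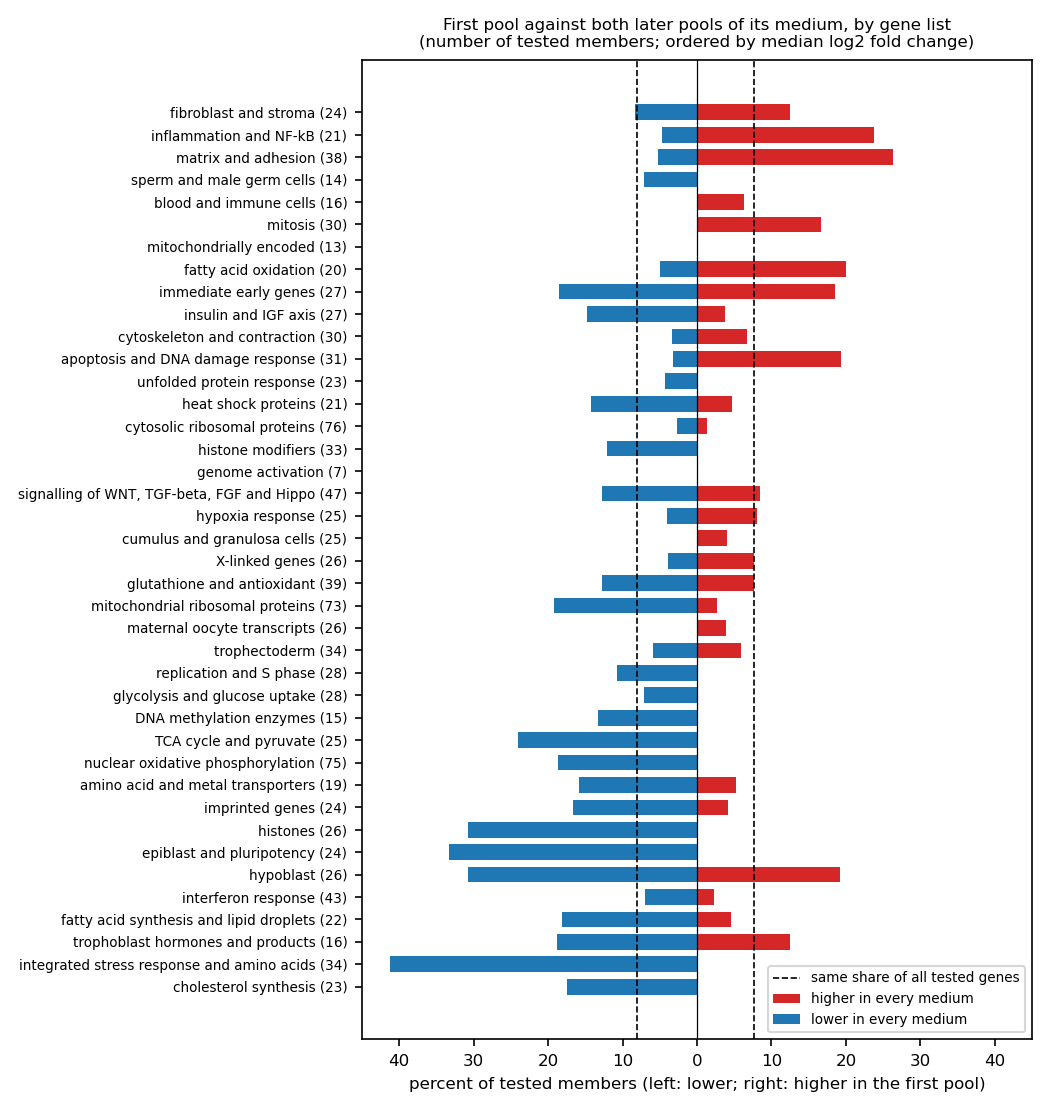
For each of the 40 gene lists, the percentage of tested members that were lower (blue, left) or higher (red, right) in the first pool than in both later pools of every medium, ordered by median log2 fold change; dashed lines give the same shares over all tested genes, 8.00% and 7.61%. The stress response and amino acid list reaches 41.2% on the left, and the matrix list 26.3% on the right.

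In some lists the medians of the 3 media differed in sign. Cholesterol synthesis had a median of -0.59 over 23 tested genes, with -1.14, 0.29 and -0.97 for control, low glucose and low glucose with BHB, and 0 genes were called by edgeR (12 at an unadjusted p under 0.05, and 4 lower in DESeq2). Its summed level was 1818, 3790 and 1893 CPM in the first pools and 2466 to 4119 CPM in the later ones, so control and BHB were below the later range and low glucose within it. Maternal oocyte transcripts had medians of -1.36, 0.33 and 1.10 and summed to 20.4, 30.2 and 54.5 CPM in the first and 25 to 43.6 CPM in the later pools. A test of the difference between media called 0 genes in edgeR (0%), with 1155 at an unadjusted p under 0.05, a smallest adjusted p of 0.505 and 0 calls in limma-voom. Of its 5 genes of smallest p, 4 were at 0.302 CPM or less in the first control pool. EIF4E1B, an oocyte cap-binding protein, was at 0.0168, 1.77 and 6.91 CPM in the first and 0.491 to 3.72 CPM in the later pools, and ZP3, of the coat around the oocyte, at 0.302, 2.93 and 4.56 CPM against 2.58 to 4.66 CPM. ERICH4 was at 0.0168, 2.02 and 0.0984 CPM against 1.15 to 2.36 CPM, and ZNF652 at 0.202, 2.64 and 4.02 CPM against 1.37 to 2.55 CPM. PDLIM3, a protein of the actin cytoskeleton, was at 10.5, 2.29 and 0.443 CPM against 0.282 to 11.6 CPM, its low glucose first pool standing above both later pools of that medium.

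The interferon response showed 1 fall. OAS1X, an antiviral enzyme gene with near-identical copies that can share its reads, was at 4.74, 0.641 and 1.94 CPM in the first and 1.36 to 35.1 CPM in the later pools (log2 fold change -1.95, SE 0.354, adjusted p = 0.0487). Control pools were highest in both, so that first and later pools overlapped across media, and within each medium the first was lowest. Of 43 tested interferon response genes it was the only one called. In every medium 3 (6.98%) were lower and 1 (2.33%) higher, against 8.00% and 7.61% of all tested genes. The median was -0.24, with 0.11, -0.36 and -0.57 by medium. ISG15 was at 42.5, 3.48 and 2.62 CPM against 3.83 to 50.5 CPM (log2 fold change -0.94, adjusted p = 0.282), and MX1 at 119, 6.98 and 7.32 CPM against 6.94 to 89.7 CPM (log2 fold change -0.34, adjusted p = 0.612), with the control first pool above every later pool. Without replicate 1 of low glucose with BHB the value of MX1 was 0.06. Of 21 inflammation genes 5 (23.8%) were higher and 1 lower in every medium, 0 were called by edgeR (5 at an unadjusted p under 0.05, 2 higher and 1 lower in DESeq2) and the median was 0.33. Blood and immune markers had a median of 0.21 with 3 of 16 at an unadjusted p under 0.05, and sperm markers of 0.24 with 1 of 14, and edgeR, limma-voom and DESeq2 called 0 in both lists; S100A8 in the first list and ODF1, SPACA3 and TEKT1 in the second were at 0 in all libraries. The largest change among all called genes was that of a gene without a symbol, ENSBTAG00000038326, at 2.2, 0.275 and 0.164 CPM against 0.634 to 33.6 CPM (log2 fold change -3.23, SE 0.376, adjusted p = 0.0101). Its later control pools were the highest, and it is named here because of its size, outside the rule for named genes.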

How the data were processed

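Polyadenylated RNA of 9 pools of bovine blastocysts was sequenced from NEBNext Ultra II libraries, per the labels' protocols. The authors deposited estimated counts per gene, of which 23.4% are not whole. The submitters' processing notes name kallisto, fastp, DESeq2 and build bosTau9. Tool versions, annotation and strand setting were not given in the sources used here. How reads divide among similar transcripts was estimated by kallisto, so values of near-identical copies are uncertain.

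Symbols came from the deposited table for 17706 genes and from a RefSeq table of another assembly, ARS-UCD2.0, for 323 more, used for names alone; 4098 had none. Rounded counts were fitted with edgeR 4.0.16 in R 4.3.3 (filterByExpr by medium with minimum count 10 and total 15, TMM factors, quasi-likelihood test of first against later pools with the medium as covariate, 5 residual degrees of freedom). Benjamini-Hochberg adjustment ran over all 16469 tested genes with a threshold of 0.05, and 5658 genes were set aside. The common biological coefficient of variation was 0.293. CPM values are TMM-scaled, log2 CPM took a prior count of 2, and standard errors derive from the fold change and F. All tests are two-sided. Alternatives were RLE factors, no filter, a mean count of at least 50, DESeq2 1.42.0, limma-voom (limma 3.58.1), a replicate block, no medium covariate, and fits without each library or medium. Figures used matplotlib 3.10.9.

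The comparison, the 40 gene lists and all rules were chosen with earlier results of these data known. Named genes were the 12 largest rises and falls with a symbol past the threshold and on the same side in every medium, the 10 most abundant called genes in each direction, up to 4 called members of each list, 20 genes whatever their values, and the 5 of smallest p for a difference between media. Another gene with a role in apoptosis was left out of the lists and is not reported here. No pools agreed within sampling noise (smallest chi-square per degree of freedom 38.9). Deviations of same-numbered pools of different media correlated at 0.0417 to 0.243, and above 0.1 in every pair for replicate 1 alone. Pools that differed in number and medium correlated at -0.174 to 0.0692. The highest value was between the replicates numbered 2 of low glucose and low glucose with BHB. These values do not show that the numbers carry no pairing. The labels give the numbers no meaning. The main fit still used them in part, since it set the pools numbered 1 of all media against all later pools. It did not tell the later pools apart by number. A replicate block, which gave each number a level of its own, was run as an alternative and refines this same grouping.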

Additional observations from a re-analysis of the deposited data

Results flagged for a closer look

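Among 74 genes and measures examined over the 6 later pools, 4 had a library far from the other 5 by Dixon's criterion of gap over range. Chance singles out about 1 in 20 such groups. SOX17 stood at 39.9 CPM in replicate 2 of low glucose with BHB, with the next later pool at 23 and the lowest at 17.5 CPM. CLDN3 stood at 81.9 CPM in the same pool, with the next at 58.2 CPM. GATA3 stood at 135.9 CPM in replicate 3 of low glucose, with the next at 122 CPM. IFNT2 stood at 4.75 CPM in replicate 3 of low glucose with BHB, with the next at 3.23 CPM. SOX17 and CLDN3 were called lower in the first pools, and in both the pool that stood apart is the later pool farthest from the first pools.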

How the results depend on the processing

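RLE factors gave the same 36 higher and 27 lower genes, and the replicate block with 3 levels gave 42 and 28, with 57 of the 63 genes among them. Counts of higher and lower genes were 118 and 148 without a filter, 221 and 323 in DESeq2, and 21 and 5 without the medium covariate; the share of higher calls was 57.1%, 44.4%, 40.6% and 80.8% in the fit reported and in these 3. Without 1 library they ran from 1 to 50 higher and from 0 to 41 lower genes. Without the control medium there were 1 and 0, without low glucose 18 and 36, more lower than higher, and without low glucose with BHB 3 and 7. The cause was not tested, beyond the fewer libraries in such fits. For replicate 1 against 2, fits without 1 library gave 2 to 41 higher and 0 to 53 lower genes, and limma-voom 51 and 62; for 1 against 3 they gave 1 to 5 and 0 to 4, and limma-voom 3 and 3; for 2 against 3 they gave 0 to 1 in each direction, and limma-voom 1 lower. Within control limma-voom gave 2 higher genes. Fits without 1 library gave 0 to 1 lower genes within low glucose, 0 to 1 higher and 0 to 3 lower within low glucose with BHB, and 0 to 1 genes that differed between media. The share of the spread between first and later pools was 17.5% with a prior count of 5. It was 22.9% over the 500 genes that varied most within media, where the medium took 16.2%. That choice of genes itself favours differences between pools over differences between media.

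Of the 42 named genes past the threshold, 1, MAT2A, kept its call in every fit without 1 library. Signs turned in 6 named genes that had not passed. COL5A1 was at -0.06 without the low glucose medium (-0.06 to 0.87 without 1 library), EIF4E1B at -0.62 without the BHB medium (-0.62 to 2.53), MX1 at 0.21 without the covariate and 0.06 without the BHB medium (-0.81 to 0.06), and PDLIM3 at -0.11 without the low glucose medium (-0.12 to 1.59). ZNF652 was at -0.46 and -0.70 without the low glucose and BHB media (-0.70 to 0.95), and ZP3 at 0.07 without the control medium (-1.69 to 0.07). With 3 first pools, 1 per medium, each within-medium value rests on 1 first pool, and values near 0 CPM rest on few counts.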

Other observations

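Of all genes listed, 27 had 0 counts in all 3 first pools and a count in all 6 later pools. Conversely, 2 genes had 0 in all 6 later pools and a count in all 3 first pools. A gene is more often at 0 in 3 libraries than in 6. The first pools also had fewer genes with a count on average, 16956.7 against 17514.5, but with overlap (two-sided exact permutation p = 0.0741, adjusted p = 0.666). The 27 genes were sparse, with a median of 58 counts summed over the 6 later pools, and 13 of the 27 had enough counts to be tested. The most abundant was PLA2G5, a secreted phospholipase, with 202 counts over the later pools, at 0.211 to 1.03 CPM there (edgeR adjusted p = 0.0841). It was chosen for its count, after the values were seen, and no bound on the change is given.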
